A study of Homo sapiens with 9 samples.

Results

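Integrins are the main receptors by which cells hold on to extracellular matrix, and laminins are the cross-shaped matrix proteins that many epithelial integrins bind. The genes described here are all protein-coding genes whose symbol is an integrin alpha or beta subunit (ITGA or ITGB with a number or a letter) or a laminin chain (LAMA, LAMB or LAMC with a number). Of the 36018 genes listed in each count file, 38 met this rule, 26 integrin and 12 laminin genes, after identifiers were matched to symbols. ITGBL1, ITGB1BP1, ITGB1BP2 and ITGB3BP share letters with the family but are not subunits and were left out. Of the 38 genes, 32 passed a filter on low counts and 6 did not. Closest to that filter were ITGB7, which passed at 0.217 to 0.559 CPM (counts scaled to a common library size), and LAMB4, which did not at 0.0294 to 0.480 CPM over all 9 libraries.

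Messenger RNA was sequenced in 9 libraries that carry the name HCT-15, a long-established human cell line from a colorectal adenocarcinoma, with the genotype given as WT throughout. There were 3 libraries of a line made tolerant to cobalt chloride (CoCl2-tolerant), 3 of a line made tolerant to low glucose (low-glucose-tolerant) and 3 of the untreated control. Per the labels' protocols, the tolerant lines came from stepwise culture, with more and more of the agent for the CoCl2-tolerant line. All cells were kept in RPMI1640 medium with serum. The labels do not say whether cobalt chloride or low glucose was present at harvest. Cobalt chloride mimics lack of oxygen by stabilising hypoxia-inducible factors, and low glucose limits glycolysis and the sugars used in protein glycosylation. The comparisons ask how the adhesion receptors and their laminin ligands differed in each tolerant line from the untreated line, and between the tolerant lines. There was 1 derived line per tolerance. Nothing in the labels ties the 3 libraries of a line to separate cultures, so the p-values rest on a spread between libraries that may be technical only.

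An integrin is a pair of an alpha and a beta subunit, and the pair decides the ligand. ITGB1 pairs with most alpha subunits, ITGB4 with ITGA6 alone, and ITGAV with ITGB1, ITGB3, ITGB5, ITGB6 or ITGB8. A laminin is a trimer of an alpha, a beta and a gamma chain held in the basement membrane, the thin matrix under epithelia. In intestinal epithelium the pairs of ITGA3 or ITGA6 with ITGB1 and of ITGA6 with ITGB4 bind laminins that contain LAMA3 or LAMA5, and a laminin that contains LAMA3 and LAMB3 anchors epithelial cells to the layer below.

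Total counts were 25178615 to 27829153 in the CoCl2-tolerant, 29971930 to 30115866 in the low-glucose-tolerant and 30075024 to 32674687 in the control libraries, where 3 counts equal 0.0882 to 0.120 CPM. Low-glucose-tolerant replicate 2 stood apart from its group, with 56.2 and 74.1 chi-squared per degree of freedom against the other libraries, which differed from each other by 27.2. CoCl2-tolerant replicate 1 also stood apart, with 32.8 and 22.6 against the other libraries of its group, which differed from each other by 8.36. Results that turn on either library are given with and without it. The summed intestinal epithelial markers, mostly keratins, were at 1382 to 1678 CPM in CoCl2-tolerant, 2502 to 3410.0 CPM in low-glucose-tolerant and 1369.8 to 1405 CPM in control libraries. KRT8, KRT18 and KRT19, keratins of simple epithelia, averaged 493, 98.6 and 911 CPM in CoCl2-tolerant, 1296, 571 and 943 CPM in low-glucose-tolerant, and 657, 107 and 549.9 CPM in control cells. EPCAM averaged 21.8, 55.7 and 54.7 CPM in CoCl2-tolerant, low-glucose-tolerant and control cells, while the intestinal transcription factors CDX1 and CDX2 summed to 0 and 0, 2 and 1, and 0 and 0 counts. Keratins and EPCAM are epithelial, but 7 of the 14 intestinal markers read were under 1 CPM in the control and 9 in each tolerant line, so the colorectal identity in the label is not seen in these markers. The 8 fibroblast markers, of which 3, 4 and 4 averaged at least 1 CPM in the CoCl2-tolerant, low-glucose-tolerant and control groups, summed to 644 to 750.1 CPM in CoCl2-tolerant libraries. Their sums were 156 to 196 CPM in low-glucose-tolerant and 2491 to 2533 CPM in control libraries, mostly COL1A1 and THY1, and none of the 8 was without counts in any group. Counts from the mitochondrial genome made up 4.64 to 6.67% of CoCl2-tolerant, 4.74 to 5.196% of low-glucose-tolerant and 8.08 to 9.80% of control libraries. These measures moved with the groups, and their part in the results was not tested.

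Levels of different genes were compared as RPKM (CPM per kilobase of the gene's exons in GENCODE release 29, means ± SD, n = 3). ITGA3, the laminin-binding alpha subunit, held 81.4 to 85.9% of the summed alpha subunit RPKM in CoCl2-tolerant, 87.9 to 91.4% in low-glucose-tolerant and 72.0 to 73.3% in control libraries. Its level was 421 ± 44.8, 474 ± 39.4 and 309 ± 5.17 RPKM in these groups. ITGAV followed at 39.0 ± 7.22, 17.6 ± 4.79 and 63.5 ± 3.45 RPKM, then ITGA5 at 27.0 ± 1.64, 14.0 ± 1.36 and 20.2 ± 0.686, and ITGA6 at 8.52 ± 0.920, 11.7 ± 2.05 and 11.3 ± 0.384 RPKM. These 4 kept that order in each group, and their ranges over libraries were separate except in the low-glucose-tolerant line, where ITGAV overlapped ITGA5 and ITGA5 overlapped ITGA6. Every other alpha subunit averaged at most 6.03 RPKM (ITGA4 in the control).

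ITGB1 led the beta subunits in each group, at 277 ± 18.9 RPKM in CoCl2-tolerant, 187 ± 28.9 in low-glucose-tolerant and 229.9 ± 6.13 in control cells. The second place changed. ITGB3 held it at 151 ± 5.84 RPKM in CoCl2-tolerant and 92.6 ± 2.36 in control cells, whereas in low-glucose-tolerant cells ITGB5, at 53.0 ± 5.94 RPKM, and ITGB3, at 44.0 ± 2.77, overlapped. ITGB4 reached 4.85 ± 0.550, 27.6 ± 4.16 and 14.3 ± 0.276 RPKM in the CoCl2-tolerant, low-glucose-tolerant and control groups. Summed over the class, beta subunits came to 489 ± 17.7 RPKM in CoCl2-tolerant, 336 ± 20.2 in low-glucose-tolerant and 395 ± 3.03 in control cells, and alpha subunits to 505 ± 38.9, 529 ± 37.2 and 426 ± 9.17.

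Among laminin chains LAMC1 was highest in CoCl2-tolerant and control cells, at 70.1 ± 4.51 and 77.5 ± 0.584 RPKM, and LAMB1 in low-glucose-tolerant cells, at 105 ± 6.08 RPKM against 59.9 ± 17.1 for LAMC1 there. Alpha chains were less abundant than beta chains, summing to 12 ± 1.28, 21.4 ± 6.65 and 21.2 ± 0.587 RPKM in CoCl2-tolerant, low-glucose-tolerant and control cells, against 88.2 ± 11, 152 ± 10.0 and 79.4 ± 1.24 for beta chains. In the alpha class LAMA3 held 71.6 to 74.6% with CoCl2 and 44.1 to 49.4% with low glucose, against 53.3 to 53.9% in the control. These shares are descriptions and carry no test.

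**Figure D1:**
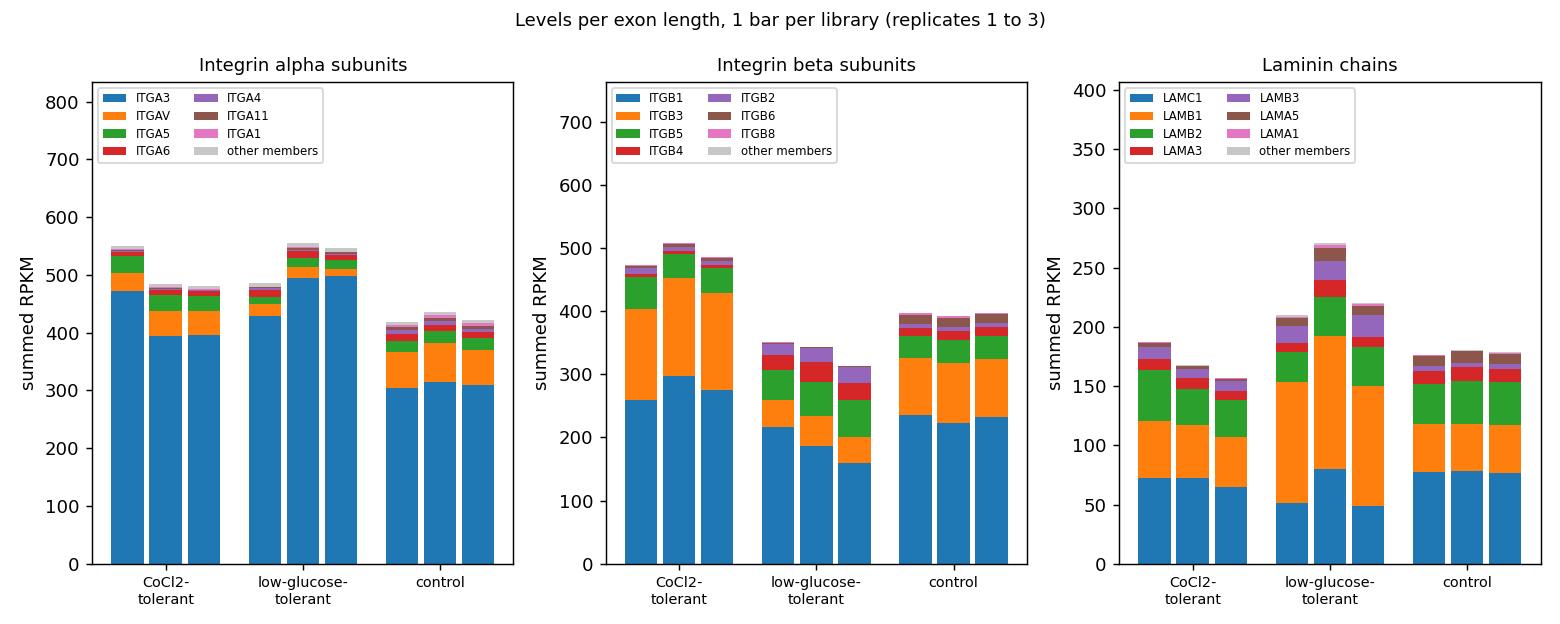
Summed RPKM (y axis) of integrin alpha subunits, integrin beta subunits and laminin chains, 1 bar per library in the CoCl2-tolerant, low-glucose-tolerant and control groups, with the 7 most abundant members shown in each panel in colour and the rest in grey, leaving out 1 laminin chain. ITGA3 fills most of every alpha bar, and the laminin bars are tallest in the low-glucose-tolerant group, where LAMB1 takes more room.

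The first comparison set the CoCl2-tolerant line against the control. The collagen receptor subunits ITGA1 and ITGA11, the subunits ITGAV and ITGB6 of the receptor for latent transforming growth factor beta (TGF-beta) and the hemidesmosome subunit ITGB4 were lower in the CoCl2-tolerant line. In contrast, ITGA3, ITGA5 and ITGB3 were higher, and among laminin chains LAMA5 was lower and LAMB3 higher. With edgeR's quasi-likelihood F test, adjusted over all genes by the Benjamini-Hochberg method, 19 of the 32 tested members were called at an adjusted p under 0.05, 4 higher and 15 lower, where 36.1% of all 17902 tested genes were called, 17.9% higher and 18.2% lower. The members' share is above that of all genes, but the members were also well counted, since 26 of 32 passed a stricter filter of 5 CPM in 3 or more libraries that 11673 of the 17902 genes passed. Of those 26 members 16 were called, where 40.6% of the genes were. Changes of at least 2-fold were called in 9 members, where 11.1% of all genes had one. No overlap between groups was seen for 26 members, and for 57.2% of all genes. The median log2 fold change was -0.39 over the 22 tested integrin genes and -0.27 over the 10 tested laminin genes, against 0.01 over all tested genes. In bulk RNA, fewer cells of a type and less RNA per cell cannot be told apart.

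**Figure D2:**
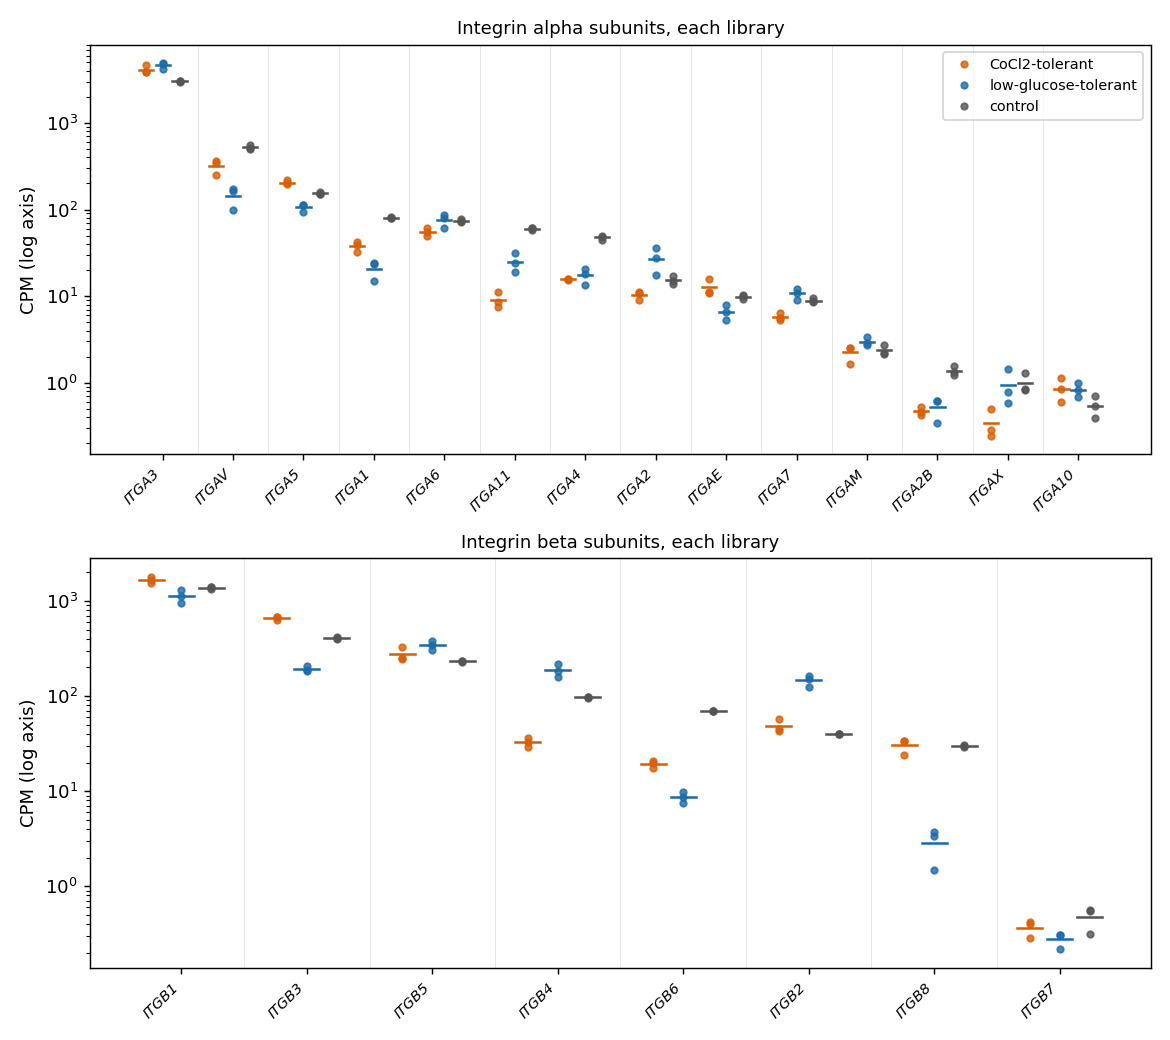
CPM on a log axis for the integrin subunits that passed the filter, with 1 point per library and a bar at the mean of each group (CoCl2-tolerant, low-glucose-tolerant, control from left to right). ITGB8 is near 30 CPM in CoCl2-tolerant and control cells and under 4 CPM in the 3 low-glucose-tolerant libraries, and the libraries of ITGB4 do not overlap between any of the 3 groups.

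The collagen receptors ITGA1 and ITGA11 fell together in the CoCl2-tolerant line. ITGA11, a collagen receptor typical of fibroblasts, lies on chromosome 15, 68296533 to 68432162 (GRCh38). It read 11, 8.58 and 7.56 CPM in CoCl2-tolerant libraries, against 57.9, 62.0 and 60.9 CPM in control libraries (log2 fold change -2.74 ± 0.18, edgeR adjusted p = 7.98e-08). This was the largest fall among the members in this comparison, and the groups were far apart. ITGA1, which pairs with ITGB1 to bind collagens of basement membranes among others, read 32.4, 41.9 and 38.9 CPM in CoCl2-tolerant libraries, against 81.9, 78.9 and 79.5 CPM in control libraries (log2 fold change -1.09 ± 0.16, edgeR adjusted p = 1.32e-04). ITGA10, another collagen receptor of cartilage, was under 2 CPM in every library and was not called (0.857 ± 0.259 CPM in CoCl2-tolerant and 0.545 ± 0.158 CPM in control cells, edgeR adjusted p = 0.131). The summed fibroblast markers given above were also lower than in the control. They were lowest in the low-glucose-tolerant line, where ITGA11 averaged 24.8 CPM, against 9.06 CPM in the CoCl2-tolerant line. These sums rest on COL1A1 and THY1, at 21.5 and 147 CPM in low-glucose-tolerant and 1855 and 642 CPM in control cells. Of the others, PDGFRA and PDGFRB were also lower there than in the control. COL1A2, COL3A1, DCN and LUM were higher, at 1.885, 0.395, 0.625 and 0.0590 CPM, against 1.63, 0.290, 0.0420 and 0.0304 CPM. Whether ITGA11 and these markers are linked was not tested.

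The window of RefSeq sequence just before the start of ITGA11 is shown because ITGA11 fell most in the CoCl2-tolerant line, and cobalt acts on hypoxia-inducible factors, whose binding core is ACGTG or GCGTG. The 250 bases lie at chr15:68432164-68432413, minus strand, build GRCh38.p14, and capitals mark the match.
ITGA11: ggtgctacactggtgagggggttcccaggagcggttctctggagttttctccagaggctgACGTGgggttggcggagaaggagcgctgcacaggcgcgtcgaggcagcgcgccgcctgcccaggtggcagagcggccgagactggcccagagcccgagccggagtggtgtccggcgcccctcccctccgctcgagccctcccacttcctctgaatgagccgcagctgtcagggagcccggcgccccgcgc
A core on either strand is common, found in 43.2% of the 35116 windows of this length. At least 1 window held a core in 9 of the 26 members with a window, so members and windows are counted in unlike units. The match describes the letters only.

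ITGA4, which pairs with ITGB1 or ITGB7 and binds VCAM1 and fibronectin, read 15.9, 15.5 and 15.9 CPM in CoCl2-tolerant libraries, against 48.1, 49.9 and 45 CPM in control libraries (log2 fold change -1.60 ± 0.14, edgeR adjusted p = 1.36e-06). ITGAV, the alpha subunit shared by the vitronectin and TGF-beta-activating receptors, read 253, 365 and 342 CPM in CoCl2-tolerant libraries, against 513, 553 and 498 CPM in control libraries (log2 fold change -0.70 ± 0.18, edgeR adjusted p = 0.00781). The groups did not overlap for either gene. ITGA7, a laminin receptor best known in muscle, fell to 5.74 ± 0.607 CPM in CoCl2-tolerant cells, against 8.86 ± 0.506 CPM in control cells (log2 fold change -0.63 ± 0.14, edgeR adjusted p = 0.00391). ITGA2B, the platelet fibrinogen receptor subunit, was low throughout, with 38 counts over the CoCl2-tolerant and 133 over the control libraries (log2 fold change -1.56 ± 0.29, edgeR adjusted p = 8.22e-04).

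Against this trend ITGA3 and ITGA5 rose. ITGA3, the most abundant alpha subunit, read 4629, 3860.4 and 3877 CPM in CoCl2-tolerant libraries, against 2979, 3081 and 3033 CPM in control libraries (log2 fold change 0.44 ± 0.11, edgeR adjusted p = 0.00665). The fibronectin receptor subunit ITGA5 read 219, 200.3 and 195 CPM in CoCl2-tolerant libraries, against 149, 159 and 151 CPM in control libraries (log2 fold change 0.42 ± 0.10, edgeR adjusted p = 0.00683). Both rises were modest, and every CoCl2-tolerant library lay above every control library. ITGAE and ITGAM, alpha subunits of lymphocytes and myeloid cells, were not called, at 12.7 ± 2.87 and 2.24 ± 0.499 CPM in CoCl2-tolerant and 9.81 ± 0.571 and 2.36 ± 0.301 CPM in control cells (edgeR adjusted p = 0.110 and 0.780).

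The partners of ITGAV split. ITGB6, the epithelial partner that releases active TGF-beta from its latent complex, read 17.7, 19.8 and 20.7 CPM in CoCl2-tolerant libraries, against 68.9, 69.2 and 69.2 CPM in control libraries (log2 fold change -1.83 ± 0.12, edgeR adjusted p = 7.72e-08). ITGB3, which forms the vitronectin receptor with ITGAV, read 635, 683 and 673 CPM in CoCl2-tolerant libraries, against 397, 417 and 406 CPM in control libraries (log2 fold change 0.71 ± 0.10, edgeR adjusted p = 7.86e-05). ITGB3 was thus higher while its usual partner outside platelets was lower. GENCODE release 29 also assigns 51.6% of the exon bases of ITGB3 to a second gene on the same strand, AC068234.1, and 20.6% of those of ITGB6 to the transcript AC092153.1, so both levels depend on how shared reads were counted. ITGB5, another vitronectin receptor subunit, averaged 276 ± 44.1 CPM in CoCl2-tolerant and 231 ± 5.35 CPM in control cells (edgeR adjusted p = 0.128). ITGB8, which like ITGB6 activates latent TGF-beta, averaged 30.6 ± 5.69 CPM in CoCl2-tolerant and 29.8 ± 0.803 CPM in control cells, with a 95% interval of the log2 difference of -0.39 to 0.47 (edgeR adjusted p = 0.899).

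ITGB4, the long-tailed subunit that links laminin to keratin filaments in hemidesmosomes, read 36.6, 32.6 and 29.1 CPM in CoCl2-tolerant libraries, against 94.5, 97.4 and 97.9 CPM in control libraries (log2 fold change -1.56 ± 0.13, edgeR adjusted p = 6.45e-07). No CoCl2-tolerant library came near the control range. ITGB7 was under 1 CPM in every library and was not called (edgeR adjusted p = 0.445), and 42.1% of its exon bases overlap ZNF740 on the opposite strand.

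Laminin chains moved unequally in the CoCl2-tolerant line. LAMA5, the alpha chain of most adult basement membranes, read 43.3, 33.0 and 32.0 CPM in CoCl2-tolerant libraries, against 126, 135 and 125 CPM in control libraries (log2 fold change -1.83 ± 0.17, edgeR adjusted p = 1.84e-06). LAMB3, the beta chain of the anchoring laminin of epithelia, read 48.4, 35.6 and 38.2 CPM in CoCl2-tolerant libraries, against 18.6, 17.9 and 17.5 CPM in control libraries (log2 fold change 1.18 ± 0.14, edgeR adjusted p = 1.56e-05). LAMC3, a minor gamma chain, fell to 1.41 ± 0.247 CPM in CoCl2-tolerant cells, against 2.35 ± 0.0577 CPM in control cells (log2 fold change -0.73 ± 0.19, edgeR adjusted p = 0.00842). The widely expressed LAMB1, LAMB2 and LAMC1 were not called, with log2 fold changes of 0.16 ± 0.10, -0.03 ± 0.14 and -0.14 ± 0.15 (edgeR adjusted p = 0.226, 0.892 and 0.491), nor was LAMA1, the embryonic alpha chain (edgeR adjusted p = 0.478). Their 95% intervals ran over -0.05 to 0.37, -0.33 to 0.27, -0.47 to 0.19 and -0.55 to 0.21.

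**Figure D3:**
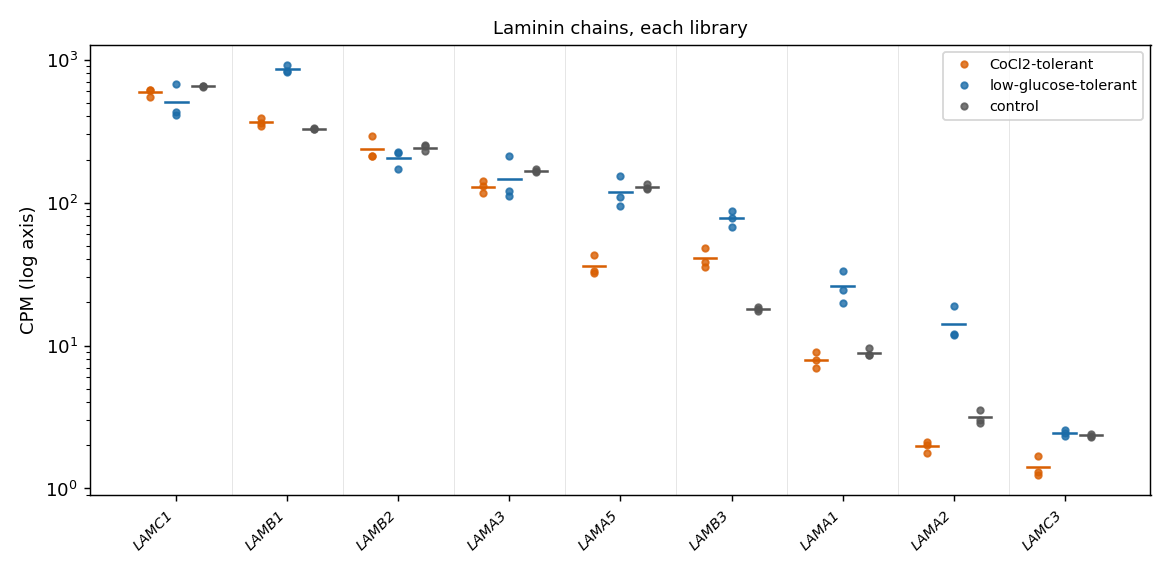
CPM on a log axis for 9 of the 10 laminin chains that passed the filter, with 1 point per library and a bar at the mean of each group (CoCl2-tolerant, low-glucose-tolerant, control from left to right). LAMA5 is lowest in the CoCl2-tolerant libraries, LAMB3 is higher in both tolerant lines, and 1 low-glucose-tolerant library (replicate 2) lies above the other 2 for LAMC1, LAMA3 and LAMA5.

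LAMB3 was the member with the largest rise in the CoCl2-tolerant line, and it rose in the low-glucose-tolerant line too, so its sequence is shown. It lies on chromosome 1, 209614870 to 209652466 (GRCh38, minus strand), and RefSeq gives 3 start sites with a window each. AP-1, a factor known to bind promoters of keratinocyte laminin genes, recognises TGANTCA, which reads alike on both strands. The 250 bases before the start farthest into the gene, at chr1:209651375-209651624, minus strand, build GRCh38.p14, hold 1 match, in capitals, 67 to 61 bases before the start.
LAMB3: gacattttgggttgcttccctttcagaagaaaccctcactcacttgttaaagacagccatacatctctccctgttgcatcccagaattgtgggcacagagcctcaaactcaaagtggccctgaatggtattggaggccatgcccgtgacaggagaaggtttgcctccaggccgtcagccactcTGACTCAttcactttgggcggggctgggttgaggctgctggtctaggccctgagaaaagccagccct
The other 2 LAMB3 windows hold none, and the LAMA3 window, at chr18:23872770-23873019, holds 2. That window belongs to a start inside LAMA3, which begins at 23689443 in GENCODE release 29, and 180 of its 250 bases lie in exons. This motif occurs in 6.57% of the 35116 windows, and LAMA3 and LAMB3 were the 2 of 26 members with it in at least 1 window. Windows and members are unlike units here too. LAMB3 was called higher in both tolerant lines and LAMA3 in neither. A match is not shown to be a bound site.

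Calls that changed with the processing in this comparison are given here, with the edgeR or DESeq2 adjusted p of each such alternative in brackets. ITGA2, a collagen receptor subunit, averaged 10.3 ± 1.19 CPM in CoCl2-tolerant and 15.3 ± 1.68 CPM in control cells and was called lower (log2 fold change -0.58 ± 0.21, edgeR adjusted p = 0.0408). The call was lost with library totals (0.0576), without control replicate 1 (0.0533), without control replicate 2 (0.142), without control replicate 3 (0.0811), without CoCl2-tolerant replicate 1 (0.124), without CoCl2-tolerant replicate 2 (0.0580), without CoCl2-tolerant replicate 3 (0.0799) and without low-glucose-tolerant replicate 1 (0.0560), and the edgeR or DESeq2 adjusted p ran over 0.00116 to 0.142 in all alternatives. ITGA6, the partner of ITGB4, averaged 55.7 ± 6.01 CPM in CoCl2-tolerant and 74.0 ± 2.51 CPM in control cells and was called lower (log2 fold change -0.41 ± 0.13, edgeR adjusted p = 0.0259). Its call was lost without control replicate 1 (0.0884), without control replicate 2 (0.0718), without control replicate 3 (0.0603), without CoCl2-tolerant replicate 1 (0.0907) and without CoCl2-tolerant replicate 3 (0.0780), over an edgeR or DESeq2 range of 0.00213 to 0.0907. LAMA2, a chain known from muscle, averaged 1.97 ± 0.187 CPM in CoCl2-tolerant and 3.14 ± 0.368 CPM in control cells and was called lower (log2 fold change -0.67 ± 0.22, edgeR adjusted p = 0.0254), but not without control replicate 3 (0.0961), without CoCl2-tolerant replicate 2 (0.0527) and without CoCl2-tolerant replicate 3 (0.0947). Its edgeR or DESeq2 range was 0.00335 to 0.0961. ITGAX, a myeloid subunit with 28 counts over the CoCl2-tolerant and 95 over the control libraries, was called lower (log2 fold change -1.52 ± 0.41, edgeR adjusted p = 0.0106), but not without control replicate 3 (0.0534). Its edgeR or DESeq2 range was 3.76e-04 to 0.0534. Summed leukocyte markers, of which 1 and 2 of 10 averaged at least 1 CPM, were at 12.3 to 17.5 CPM in CoCl2-tolerant and 6.82 to 8.13 CPM in control libraries. LCP1, an actin-bundling protein that many cancer cell lines also express, made up most of these sums, at 13.3 CPM in CoCl2-tolerant and 4.70 CPM in control cells. Without LCP1 the sums were 1.28 to 2.30 CPM in CoCl2-tolerant and 2.26 to 3.53 CPM in control libraries. LAMA3 read 141, 129.9 and 117 CPM in CoCl2-tolerant libraries, against 164, 171 and 165 CPM in control libraries, and was not called (log2 fold change -0.37 ± 0.19, edgeR adjusted p = 0.136). It was called lower with no filter (0.0231), in a fit of only the compared groups (0.00226) and without low-glucose-tolerant replicate 2 (0.00356), over an edgeR or DESeq2 range of 0.00226 to 0.326.

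Nor were ITGB1 and ITGB2 called. ITGB1, the common beta subunit, read 1557, 1784 and 1657 CPM in CoCl2-tolerant libraries, against 1412, 1341 and 1393 CPM in control libraries (log2 fold change 0.27 ± 0.12, edgeR adjusted p = 0.0910). It was called higher in a fit of only the compared groups (0.0110) and without low-glucose-tolerant replicate 3 (0.0448), over an edgeR or DESeq2 range of 0.0110 to 0.24. A pseudogene, ITGB1P1, took 87.5 ± 2.78 CPM in CoCl2-tolerant, 56.2 ± 7.72 in low-glucose-tolerant and 64.8 ± 2.22 in control cells, so reads may be split between the copies and the level of ITGB1 is uncertain to that extent. ITGB2, the leukocyte beta subunit, averaged 48.4 ± 7.32 CPM in CoCl2-tolerant and 40.0 ± 0.122 CPM in control cells (log2 fold change 0.28 ± 0.13, edgeR adjusted p = 0.113). It was called higher in a fit of only the compared groups (0.0381), over an edgeR or DESeq2 range of 0.0381 to 0.387.

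The second comparison set the low-glucose-tolerant line against the control. Laminin chains LAMA1, LAMA2, LAMB1 and LAMB3 were higher in the low-glucose-tolerant line, as were ITGB2, ITGB4, ITGB5, ITGA2 and ITGA3, while ITGB8, ITGB6, ITGAV, ITGB3, ITGA1, ITGA4 and ITGA11 were lower. Of the 32 tested members 22 were called by edgeR's test, 10 higher and 12 lower, where 69.2% of all tested genes were called, 34.6% higher and 34.6% lower. The members' share is near that of all genes, so the count itself says nothing particular about the family. The same holds under the stricter filter, with 21 of 26 members and 72.5% of genes called, and for groups without overlap, with 24 of 32 members and 73.3% of genes. Changes of at least 2-fold were called in 14 members, where 36.7% of all genes had one. The control libraries are those of the first comparison, so the 2 comparisons are not independent. By class, 5 of 10 tested laminin genes rose and LAMC1 fell (median log2 fold change 0.67), and 5 of 22 tested integrin genes rose and 11 fell (median -0.41), against a median of -0.01 over all tested genes.

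The largest changes were in the partners of ITGAV. ITGB8, which lies on chromosome 7, 20330702 to 20415754, read 3.36, 3.70 and 1.48 CPM in low-glucose-tolerant libraries, against 29, 30.6 and 30.0 CPM in control libraries (log2 fold change -3.38 ± 0.24, edgeR adjusted p = 1.82e-08). ITGB6 read 9.86, 8.67 and 7.53 CPM in low-glucose-tolerant libraries, against 68.9, 69.2 and 69.2 CPM in control libraries (log2 fold change -2.99 ± 0.13, edgeR adjusted p = 1.45e-10). Both of the TGF-beta-activating subunits were lower, with no overlap between groups. ITGAV itself read 170.5, 164 and 99.4 CPM in low-glucose-tolerant libraries, against 513, 553 and 498 CPM in control libraries (log2 fold change -1.85 ± 0.19, edgeR adjusted p = 6.90e-07). ITGB3 read 188, 207 and 185 CPM in low-glucose-tolerant libraries, against 397, 417 and 406 CPM in control libraries (log2 fold change -1.07 ± 0.10, edgeR adjusted p = 2.68e-07). ITGB5 was the exception among these partners, with 302, 346 and 378 CPM in low-glucose-tolerant libraries, against 226, 236 and 232 CPM in control libraries (log2 fold change 0.56 ± 0.12, edgeR adjusted p = 0.00105).

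ITGB4 and ITGB2 rose. ITGB4 read 160.3, 216 and 184 CPM in low-glucose-tolerant libraries, against 94.5, 97.4 and 97.9 CPM in control libraries (log2 fold change 0.95 ± 0.12, edgeR adjusted p = 9.02e-06). Its partner ITGA6 averaged 76.1 ± 13.4 CPM in low-glucose-tolerant and 74.0 ± 2.51 CPM in control cells, with a 95% interval of the log2 difference of -0.24 to 0.32 (edgeR adjusted p = 0.797). ITGB2, known from leukocytes, read 124, 151 and 164 CPM in low-glucose-tolerant libraries, against 40.1, 39.9 and 39.9 CPM in control libraries (log2 fold change 1.87 ± 0.13, edgeR adjusted p = 1.95e-08). Its usual alpha partners were not called. ITGAM averaged 2.99 ± 0.303 CPM in low-glucose-tolerant and 2.36 ± 0.301 CPM in control cells (edgeR adjusted p = 0.138) and ITGAX 0.937 ± 0.453 and 0.990 ± 0.271 CPM (edgeR adjusted p = 0.840), while ITGAL and ITGAD did not pass the filter. Of the 10 leukocyte markers 1 averaged at least 1 CPM in low-glucose-tolerant and 2 in control cells. They summed to 2.68 to 3.63 CPM in low-glucose-tolerant and 6.82 to 8.13 CPM in control libraries, and the defining marker PTPRC had 17 and 29 counts over these groups. The antisense gene ITGB2-AS1, which shares 4.46% of the exon bases of ITGB2, was at 4.84 ± 0.732 CPM in low-glucose-tolerant and 7.15 ± 0.650 CPM in control cells.

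Among alpha subunits ITGA3 rose again, with 4197, 4841 and 4889 CPM in low-glucose-tolerant libraries, against 2979, 3081 and 3033 CPM in control libraries (log2 fold change 0.61 ± 0.11, edgeR adjusted p = 1.90e-04). The collagen receptors separated. ITGA2 read 27.3, 35.7 and 17.5 CPM in low-glucose-tolerant libraries, against 13.8, 17.1 and 15.0 CPM in control libraries (log2 fold change 0.81 ± 0.20, edgeR adjusted p = 0.00232). The log2 fold change of ITGA2 ran over 0.56 to 1.05 in the alternatives. ITGA1 read 23.3, 23.9 and 14.8 CPM in low-glucose-tolerant libraries, against 81.9, 78.9 and 79.5 CPM in control libraries (log2 fold change -1.95 ± 0.16, edgeR adjusted p = 1.06e-07). ITGA11 read 18.8, 31.1 and 24.4 CPM in low-glucose-tolerant libraries, against 57.9, 62.0 and 60.9 CPM in control libraries (log2 fold change -1.28 ± 0.17, edgeR adjusted p = 9.78e-06). ITGA1 and ITGA11 did not overlap between groups, and the lowest ITGA2 library of the low-glucose-tolerant line was just above the highest of the control. Other receptors fell. ITGA4 fell to 17.3 ± 3.66 CPM in low-glucose-tolerant cells, against 47.6 ± 2.47 CPM in control cells (log2 fold change -1.46 ± 0.14, edgeR adjusted p = 4.47e-07), and ITGA5 to 106 ± 10.3 CPM, against 153 ± 5.19 CPM in control cells (log2 fold change -0.53 ± 0.10, edgeR adjusted p = 4.18e-04). ITGAE, which binds E-cadherin, fell to 6.59 ± 1.30 CPM in low-glucose-tolerant cells, against 9.81 ± 0.571 CPM in control cells (log2 fold change -0.57 ± 0.18, edgeR adjusted p = 0.00958). Of the exon bases of ITGAE, 7.59% overlap HASPIN and an antisense gene on the opposite strand. ITGA2B had 45 counts over the low-glucose-tolerant and 133 over the control libraries (log2 fold change -1.39 ± 0.28, edgeR adjusted p = 4.46e-04), and ITGA10 was not called (edgeR adjusted p = 0.110).

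The beta chains LAMB1 and LAMB3 rose. LAMB1, the main beta chain, read 834, 915 and 825 CPM in low-glucose-tolerant libraries, against 330.2, 326 and 325 CPM in control libraries (log2 fold change 1.39 ± 0.10, edgeR adjusted p = 2.29e-08). LAMB3 read 67.7, 78.4 and 87.4 CPM in low-glucose-tolerant libraries, against 18.6, 17.9 and 17.5 CPM in control libraries (log2 fold change 2.11 ± 0.14, edgeR adjusted p = 8.21e-09). LAMA3, the alpha chain found with LAMB3 in the anchoring laminin, was not called. Its values were 112, 210.1 and 120.0 CPM in low-glucose-tolerant libraries, against 164, 171 and 165 CPM in control libraries (log2 fold change -0.18 ± 0.18, edgeR adjusted p = 0.398).

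Alpha chains of other tissues were higher as well. LAMA1, a chain of early embryos, read 19.9, 33.5 and 24.5 CPM in low-glucose-tolerant libraries, against 9.59, 8.55 and 8.57 CPM in control libraries (log2 fold change 1.54 ± 0.17, edgeR adjusted p = 2.07e-06), although 11.1% of its exon bases overlap genes on the opposite strand. LAMA2, the chain whose loss causes a muscular dystrophy, read 12, 18.8 and 11.9 CPM in low-glucose-tolerant libraries, against 3.02, 2.85 and 3.56 CPM in control libraries (log2 fold change 2.18 ± 0.19, edgeR adjusted p = 1.54e-07). It had the largest rise of any member in this comparison, and lies on chromosome 6, 128883141 to 129516569 (plus strand). The 250 bases before its RefSeq start, shown for that reason, lie at chr6:128882888-128883137, build GRCh38.p14, with 1 GCGTG in capitals and no TGANTCA.
LAMA2: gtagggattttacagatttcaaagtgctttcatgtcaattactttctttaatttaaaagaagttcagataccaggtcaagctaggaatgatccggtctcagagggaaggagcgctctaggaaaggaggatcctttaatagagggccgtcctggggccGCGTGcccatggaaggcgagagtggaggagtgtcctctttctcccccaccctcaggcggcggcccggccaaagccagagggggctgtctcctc
Levels of LAMA1 and LAMA2 were below those of LAMA3 and LAMA5 per exon length, at 1.64 ± 0.435 and 1.38 ± 0.381 RPKM in low-glucose-tolerant cells, against 10.0 ± 3.72 and 8.35 ± 2.14 RPKM for LAMA3 and LAMA5 there. LAMC3 was not called, with a 95% interval of the log2 difference of -0.33 to 0.43 (edgeR adjusted p = 0.807).

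Several calls turned on low-glucose-tolerant replicate 2 or on other single choices, with the edgeR or DESeq2 adjusted p of each such alternative in brackets. LAMA3 was called lower without low-glucose-tolerant replicate 2 (3.13e-04), over an edgeR or DESeq2 range of 3.13e-04 to 0.982. LAMA5 averaged 119 ± 30.6 CPM in low-glucose-tolerant and 129 ± 5.28 CPM in control cells (log2 fold change -0.11 ± 0.16, edgeR adjusted p = 0.565), and was called lower without low-glucose-tolerant replicate 2 (0.0336), over an edgeR or DESeq2 range of 0.0336 to 0.849. LAMC1 read 430.0, 669.8 and 412 CPM in low-glucose-tolerant libraries, against 651, 657 and 647 CPM in control libraries, so the groups overlapped through replicate 2. It was called lower (log2 fold change -0.37 ± 0.15, edgeR adjusted p = 0.0445), with a log2 fold change of -0.62 to -0.24 over the alternatives. Its call was lost in a fit of only the compared groups (0.0548), without control replicate 1 (0.0903), without control replicate 2 (0.0961), without control replicate 3 (0.0887), without CoCl2-tolerant replicate 2 (0.0547), without CoCl2-tolerant replicate 3 (0.0553), without low-glucose-tolerant replicate 1 (0.187) and without low-glucose-tolerant replicate 3 (0.185), over an edgeR or DESeq2 range of 3.07e-05 to 0.187 whose lowest value came without low-glucose-tolerant replicate 2. ITGB1 read 1303, 1121 and 955 CPM in low-glucose-tolerant libraries, against 1412, 1341 and 1393 CPM in control libraries, and was called lower (log2 fold change -0.29 ± 0.12, edgeR adjusted p = 0.0392). Its call was lost with no filter (0.0715), with the replicate block (0.0516), without control replicate 1 (0.114), without control replicate 2 (0.0671), without control replicate 3 (0.101), without CoCl2-tolerant replicate 3 (0.0570) and without low-glucose-tolerant replicate 3 (0.170), over log2 fold changes of -0.40 to -0.18 and an edgeR or DESeq2 range of adjusted p of 0.00782 to 0.170. ITGA7 averaged 10.7 ± 1.57 CPM in low-glucose-tolerant and 8.86 ± 0.506 CPM in control cells (log2 fold change 0.28 ± 0.14, edgeR adjusted p = 0.0912), and was called higher without low-glucose-tolerant replicate 1 (0.0215), over an edgeR or DESeq2 range of 0.0215 to 0.268. ITGB7 was not called (log2 fold change -0.77 ± 0.38, edgeR adjusted p = 0.0820) but was without control replicate 3 (0.0478), over an edgeR or DESeq2 range of 0.0478 to 0.234. LAMB2, a widely expressed beta chain, was not called (log2 fold change -0.23 ± 0.14, edgeR adjusted p = 0.154) but was with library totals (0.0350), over an edgeR or DESeq2 range of 0.0350 to 0.520.

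**Figure D4:**
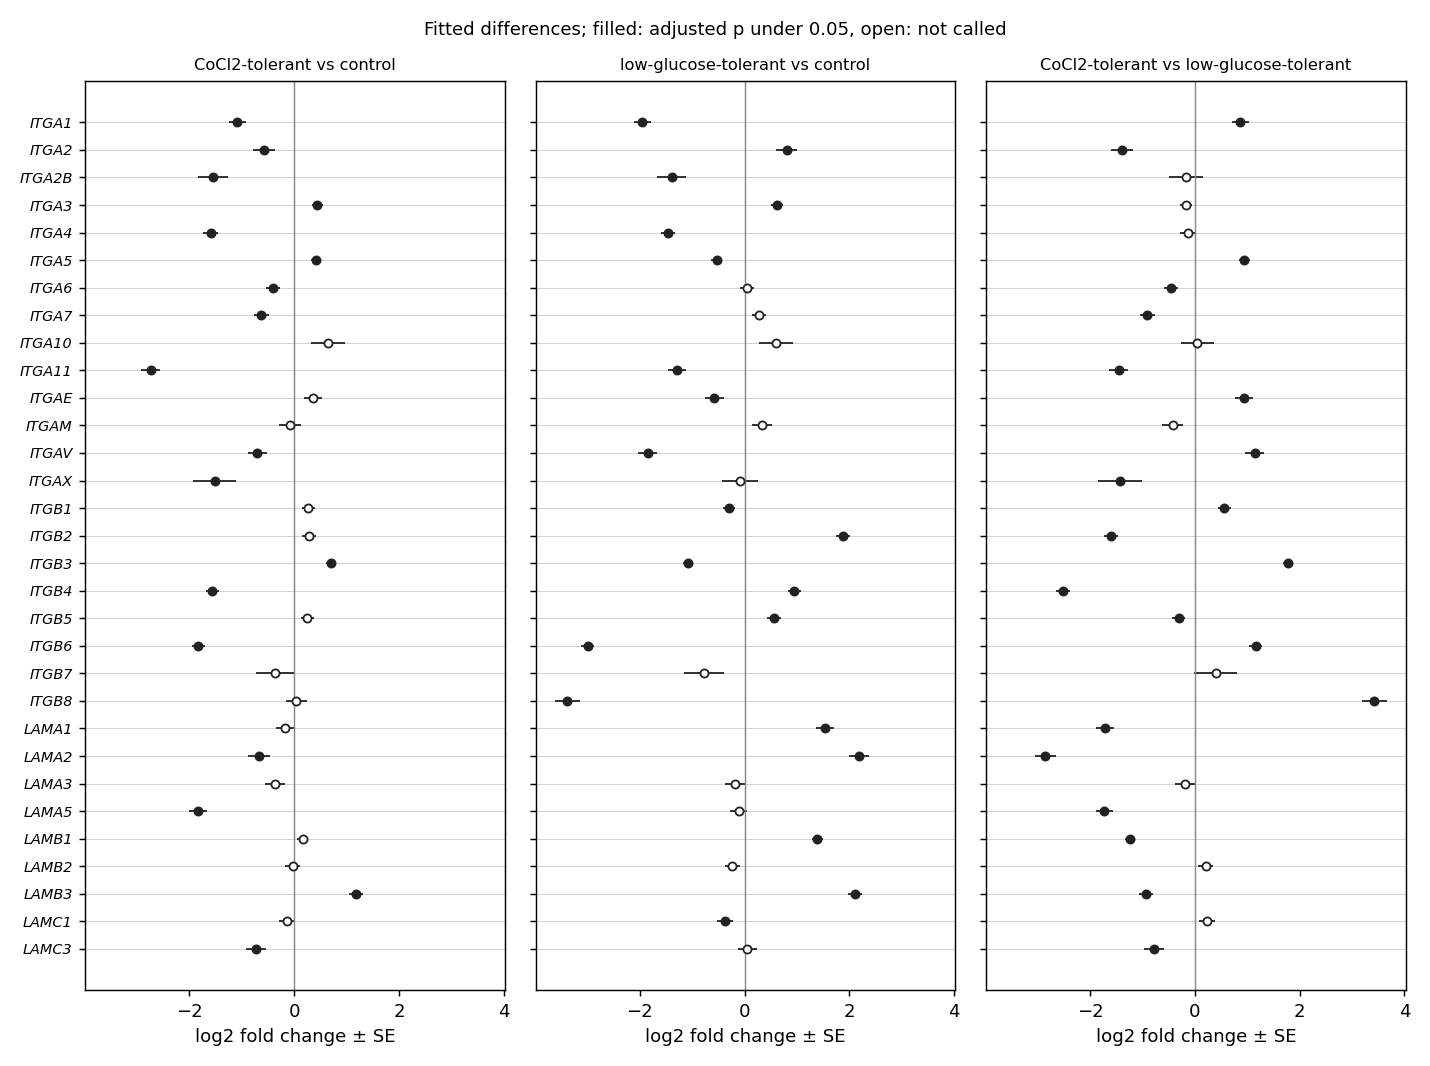
Fitted log2 fold change ± SE (x axis) of 31 of the 32 tested members in the 3 comparisons, the first-named group over the second, with filled points for members called at an adjusted p under 0.05. ITGB4 lies left of 0 in the CoCl2-tolerant and right of 0 in the low-glucose-tolerant comparison, and ITGB3 the other way round.

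The third comparison set the tolerant lines against each other and so tests where they differed. CoCl2-tolerant cells had more ITGB8, ITGB3, ITGB6, ITGAV, ITGA5, ITGAE, ITGA1 and ITGB1 than low-glucose-tolerant cells, and less ITGB4, ITGB2, ITGA2, ITGA7, ITGA11 and ITGA6. Of the 10 tested laminin genes 7 were lower in the CoCl2-tolerant line and the other 3 were not called (median log2 fold change -1.08, against 0.01 over all tested genes), although LAMC1 was called higher without low-glucose-tolerant replicate 2. In all, 23 of 32 members were called by edgeR's test, 8 higher and 15 lower, where 63.9% of all tested genes were called, 31.9% higher and 32% lower. Under the stricter filter 20 of 26 members and 66.3% of genes were called. Changes of at least 2-fold were called in 14 members and 31.5% of genes, and the libraries did not overlap for 22 members and 63.1% of genes. The tested integrin genes divided evenly, 8 higher and 8 lower of 22.

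ITGB4 averaged 32.8 ± 3.72 CPM in CoCl2-tolerant and 187 ± 28.1 CPM in low-glucose-tolerant cells (log2 fold change -2.51 ± 0.13, edgeR adjusted p = 1.31e-09). ITGB8 averaged 30.6 ± 5.69 CPM in CoCl2-tolerant and 2.85 ± 1.19 CPM in low-glucose-tolerant cells (log2 fold change 3.42 ± 0.24, edgeR adjusted p = 2.22e-08). For ITGB3 the means were 664 ± 25.7 and 193 ± 12.2 CPM (log2 fold change 1.78 ± 0.10, edgeR adjusted p = 2.61e-09). ITGB4 and ITGB3 moved in opposite directions in the tolerant lines, each past the threshold against the control in both lines. Their calls between the lines follow from those opposite changes in the same fit and add no separate support. The same held for ITGA5, at 205 ± 12.4 CPM in CoCl2-tolerant and 106 ± 10.3 CPM in low-glucose-tolerant cells (log2 fold change 0.95 ± 0.11, edgeR adjusted p = 2.55e-06). ITGB6 and ITGAV were lower than control in both lines, and lower still in the low-glucose-tolerant line. ITGB6 averaged 19.4 ± 1.54 CPM in CoCl2-tolerant and 8.68 ± 1.16 CPM in low-glucose-tolerant cells (log2 fold change 1.16 ± 0.12, edgeR adjusted p = 1.70e-06) and ITGAV 320.2 ± 59.3 and 145 ± 39.4 CPM (log2 fold change 1.15 ± 0.18, edgeR adjusted p = 7.76e-05).

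Receptors of collagen differed in order between the lines. ITGA11 was lower in CoCl2-tolerant cells, at 9.06 ± 1.79 CPM, than in low-glucose-tolerant cells, at 24.8 ± 6.15 CPM (log2 fold change -1.45 ± 0.18, edgeR adjusted p = 6.23e-06), and ITGA2 likewise, at 10.3 ± 1.19 and 26.8 ± 9.10 CPM (log2 fold change -1.39 ± 0.21, edgeR adjusted p = 4.07e-05). ITGA1 was higher in CoCl2-tolerant cells (log2 fold change 0.87 ± 0.16, edgeR adjusted p = 2.98e-04). ITGB2 was lower in CoCl2-tolerant cells (log2 fold change -1.60 ± 0.13, edgeR adjusted p = 1.28e-07), as were the laminin receptor subunits ITGA7 (log2 fold change -0.90 ± 0.14, edgeR adjusted p = 7.89e-05) and ITGA6 (log2 fold change -0.45 ± 0.13, edgeR adjusted p = 0.00829). The libraries of ITGA6 overlapped between the lines, at 49.8, 61.8 and 55.5 CPM in CoCl2-tolerant and 86.7, 80.7 and 61.0 CPM in low-glucose-tolerant libraries. ITGAE and ITGB1 were higher in CoCl2-tolerant cells (log2 fold change 0.94 ± 0.18, edgeR adjusted p = 3.18e-04, and log2 fold change 0.56 ± 0.12, edgeR adjusted p = 8.52e-04). The fibronectin and VCAM1 receptor subunit ITGA4, together with ITGA3, ITGA10, ITGA2B, ITGAM and ITGB7, was not called (edgeR adjusted p = 0.407, 0.188, 0.898, 0.676, 0.0809 and 0.405). The 95% interval of the log2 difference was -0.41 to 0.07 for ITGA3 and -0.44 to 0.16 for ITGA4, with log2 fold changes of -0.17 ± 0.11 and -0.14 ± 0.14. ITGA4 was called lower without low-glucose-tolerant replicate 3 (0.0305), by its edgeR adjusted p in brackets, over an edgeR or DESeq2 range of 0.0305 to 0.956.

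LAMA2 was the laminin chain with the largest fold change, at 1.97 ± 0.187 CPM in CoCl2-tolerant and 14.2 ± 3.95 CPM in low-glucose-tolerant cells (log2 fold change -2.85 ± 0.20, edgeR adjusted p = 2.59e-08). LAMA5 averaged 36.1 ± 6.24 CPM in CoCl2-tolerant and 119 ± 30.6 CPM in low-glucose-tolerant cells (log2 fold change -1.72 ± 0.17, edgeR adjusted p = 6.31e-07). LAMA1 averaged 7.92 ± 1.01 CPM in CoCl2-tolerant and 26.0 ± 6.90 CPM in low-glucose-tolerant cells (log2 fold change -1.71 ± 0.18, edgeR adjusted p = 1.09e-06), and LAMB1 365 ± 24.0 and 858 ± 49.5 CPM (log2 fold change -1.23 ± 0.10, edgeR adjusted p = 1.06e-07). LAMB3, higher than control in both lines, was lower in the CoCl2-tolerant than in the low-glucose-tolerant line (log2 fold change -0.93 ± 0.13, edgeR adjusted p = 2.75e-05), and so was LAMC3 (log2 fold change -0.78 ± 0.19, edgeR adjusted p = 0.00249). LAMA3, LAMB2 and LAMC1 were not called, with log2 fold changes of -0.19 ± 0.19, 0.21 ± 0.14 and 0.23 ± 0.15 (edgeR adjusted p = 0.389, 0.219 and 0.212). LAMC1 was called higher without low-glucose-tolerant replicate 2 (3.43e-04, 0.48), with the edgeR adjusted p and the log2 fold change in brackets, over an edgeR or DESeq2 range of 3.43e-04 to 0.618. ITGB5 was called lower at 276 ± 44.1 CPM in CoCl2-tolerant and 342 ± 38.3 CPM in low-glucose-tolerant cells (log2 fold change -0.31 ± 0.12, edgeR adjusted p = 0.0410). Its call was lost with library totals (0.103), with the stricter filter (0.129), in a fit of only the compared groups (0.109), with the replicate block (0.0601), without control replicate 1 (0.0538), without control replicate 2 (0.0584), without control replicate 3 (0.0583), without CoCl2-tolerant replicate 2 (0.165), without CoCl2-tolerant replicate 3 (0.151) and without low-glucose-tolerant replicate 3 (0.113), over an edgeR or DESeq2 range of 0.00478 to 0.165. ITGAX was called lower (log2 fold change -1.44 ± 0.42, edgeR adjusted p = 0.00800), but not without low-glucose-tolerant replicate 3 (0.0515), over an edgeR or DESeq2 range of 3.86e-04 to 0.0515.

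The other 6 members did not pass the filter, so the reported fit gave them no test. The leukocyte subunits ITGAL and ITGAD had 34 and 1 counts over all 9 libraries, and ITGA8 and ITGA9, receptors for nephronectin and tenascin, had 11 and 19. LAMA4, the vascular alpha chain, had 5. LAMB4 had 3, 2 and 3 counts in CoCl2-tolerant, 9, 14 and 11 in low-glucose-tolerant and 4, 1 and 5 in control libraries, so its low-glucose-tolerant libraries were the highest. In the fit with no filter, LAMB4 was called higher in low-glucose-tolerant than in control cells (log2 fold change 1.90, edgeR adjusted p = 0.00609). It was called lower there in CoCl2-tolerant than in low-glucose-tolerant cells (log2 fold change -1.99, edgeR adjusted p = 0.00697), and was not called between CoCl2-tolerant and control cells. The other alternatives that tested LAMB4 each left out 1 library. It passed their filter only through low-glucose-tolerant replicates 2 and 3, at 0.480 and 0.398 CPM, so their calls add no support. The other 5 were tested with no filter alone and were not called there, and changes in them were not detectable at these counts.

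Other genes that work with the family were read from lists of known partners, and each list is given by its counts of called genes, beside the shares of all genes above. Of 28 tested genes of integrin activation and focal adhesions, 2 rose and 7 fell in the CoCl2-tolerant line, and 6 rose and 12 fell in the low-glucose-tolerant line. The shares of all genes called were 36.1% and 69.2%, and 63.9% between the tolerant lines, so the counts say nothing particular about this list. NEDD9, a docking protein of focal adhesions, averaged 1.54 ± 0.333 CPM in CoCl2-tolerant, 1.0 ± 0.310 in low-glucose-tolerant and 16.3 ± 0.756 in control cells (edgeR adjusted p = 1.90e-08 and 5.76e-10 against control). TNS1, the adaptor tensin that ties integrins to actin, averaged 22.0 ± 2.12, 14.2 ± 4.60 and 85.5 ± 4.76 CPM in the same order (edgeR adjusted p = 1.44e-06 and 1.50e-08). In the CoCl2-tolerant line PTK2B, a kinase related to focal adhesion kinase, fell (log2 fold change -1.08, edgeR adjusted p = 3.59e-05), as did the tensin TNS3 (log2 fold change -0.98, edgeR adjusted p = 4.95e-04). Both were also lower than control in the low-glucose-tolerant line (log2 fold change -0.58 and -1.19, edgeR adjusted p = 0.00134 and 2.15e-05). The list's median log2 fold change was -0.11 in the CoCl2-tolerant and -0.21 in the low-glucose-tolerant line. LIMS2, part of the complex that links integrin tails to actin, fell to 6.06 ± 0.432 CPM in low-glucose-tolerant cells, against 68.5 ± 2.79 CPM in control cells (log2 fold change -3.50, edgeR adjusted p = 2.72e-11), and TLN2, a talin that switches integrins on, to 67.6 ± 22.3 CPM, against 206 ± 9.15 CPM in control cells (log2 fold change -1.61, edgeR adjusted p = 1.75e-06). LIMS2 was also lower than control in the CoCl2-tolerant line (log2 fold change -0.71, edgeR adjusted p = 1.75e-04). Between the tolerant lines, 11 genes of the list were higher and 7 lower in CoCl2-tolerant cells, with FLNA, a filamin that binds integrin tails and actin, at 5171 ± 972 CPM in CoCl2-tolerant and 1928 ± 431 CPM in low-glucose-tolerant cells (log2 fold change 1.42, edgeR adjusted p = 3.04e-06).

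Of 9 hemidesmosome and tetraspanin partners, 2 rose and 1 fell in the CoCl2-tolerant line, and 3 rose and 2 fell in the low-glucose-tolerant line, against 36.1% and 69.2% of all genes called. Between the tolerant lines, 3 were higher and 2 lower in CoCl2-tolerant cells, against 63.9% of all genes called. DST, a plakin whose epithelial form ties ITGB4 to keratins, fell to 87.3 ± 24.5 CPM in low-glucose-tolerant cells, against 271 ± 3.45 CPM in control cells (log2 fold change -1.63, edgeR adjusted p = 4.71e-07), while ITGB4 itself was higher there. COL17A1, the collagen of hemidesmosomes, was low but rose to 2.76 ± 0.450 CPM in low-glucose-tolerant cells, against 0.973 ± 0.284 CPM in control cells (log2 fold change 1.51, edgeR adjusted p = 6.51e-05). The tetraspanin CD9 fell to 57.2 ± 2.62 CPM in CoCl2-tolerant cells, against 125 ± 5.66 CPM in control cells (log2 fold change -1.12, edgeR adjusted p = 4.32e-06). CD82, a tetraspanin that restrains integrin-based migration, averaged 43.0 ± 8.41 CPM in CoCl2-tolerant, 43.0 ± 5.11 in low-glucose-tolerant and 20.4 ± 2.50 in control cells (edgeR adjusted p = 8.84e-05 and 1.80e-05 against control).

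Of 13 tested basement membrane partners of laminin, 9 fell and 2 rose in the CoCl2-tolerant line (median log2 fold change -0.70), and 9 fell and 1 rose in the low-glucose-tolerant line (median -0.80). Set against low-glucose-tolerant cells, CoCl2-tolerant cells had 7 of them higher and 5 lower (median 0.82). Of all genes, 36.1%, 69.2% and 63.9% were called in these 3 comparisons, in that order. COL4A1, a chain of the collagen network of basement membranes, averaged 1442 ± 64.6 CPM in CoCl2-tolerant, 308 ± 68.2 in low-glucose-tolerant and 2926 ± 43.5 in control cells (edgeR adjusted p = 5.37e-05 and 2.30e-10 against control). HSPG2, the heparan sulfate proteoglycan perlecan, averaged 474 ± 111, 214 ± 127 and 922 ± 46.3 CPM in the same order (edgeR adjusted p = 0.0180 and 1.95e-05). Its call in the CoCl2-tolerant line was lost by DESeq2 (0.0721), without control replicate 2 (0.0520) and without CoCl2-tolerant replicate 3 (0.0771), by the edgeR or DESeq2 adjusted p in brackets, over a range of 7.21e-13 to 0.0771. COL7A1, the anchoring fibril collagen that binds the laminin of LAMA3 and LAMB3, fell to 47.6 ± 0.621 CPM in low-glucose-tolerant cells, against 446 ± 18.0 CPM in control cells (log2 fold change -3.23, edgeR adjusted p = 2.78e-11). In CoCl2-tolerant cells COL7A1 was called higher than control, at 570 ± 60.6 CPM (log2 fold change 0.35, edgeR adjusted p = 0.0160), a call lost in 3 of 16 alternatives. Low-glucose-tolerant cells had more LAMB3 than control cells, and less COL7A1 and COL4A1. NID2, a nidogen that bridges laminin to collagen, fell to 8.69 ± 1.59 CPM in CoCl2-tolerant cells, against 20.5 ± 0.700 CPM in control cells (log2 fold change -1.24, edgeR adjusted p = 1.50e-04). NID2 was also called lower than control in low-glucose-tolerant cells (log2 fold change -0.44, edgeR adjusted p = 0.0403), a call lost in 5 of 16 alternatives.

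Of 4 other laminin receptors, 2 fell and the other 2 were not called in the CoCl2-tolerant line, and 2 rose and 2 fell in the low-glucose-tolerant line. The shares of all genes called were 36.1% and 69.2%, and 63.9% between the tolerant lines. BCAM, which binds LAMA5, averaged 22.9 ± 3.74 CPM in CoCl2-tolerant, 63.6 ± 7.36 in low-glucose-tolerant and 93.7 ± 3.87 in control cells (edgeR adjusted p = 7.83e-08 and 0.00127 against control). Both BCAM and LAMA5 were lower in the CoCl2-tolerant than in the low-glucose-tolerant line (log2 fold change -1.48, edgeR adjusted p = 2.82e-07 for BCAM). Dystroglycan, DAG1, averaged 126 ± 6.40, 102 ± 20.8 and 223 ± 5.54 CPM in the same order (edgeR adjusted p = 2.32e-04 and 2.48e-06). The syndecans SDC1 and SDC4, cell-surface heparan sulfate proteoglycans, rose in the low-glucose-tolerant line. SDC1 averaged 227 ± 16.9 CPM in low-glucose-tolerant and 137 ± 5.62 CPM in control cells (log2 fold change 0.72, edgeR adjusted p = 3.30e-05), and SDC4 averaged 306 ± 5.64 CPM in low-glucose-tolerant and 241 ± 12.9 CPM in control cells (log2 fold change 0.35, edgeR adjusted p = 0.00532). Between the tolerant lines, 1 receptor was higher and 2 were lower in CoCl2-tolerant cells. The higher one was DAG1 (log2 fold change 0.31, edgeR adjusted p = 0.0445), whose call was lost with no filter (0.0668), in a fit of only the compared groups (0.0754), without control replicate 1 (0.0693), without control replicate 2 (0.0665), without control replicate 3 (0.0689), without CoCl2-tolerant replicate 1 (0.0686), without CoCl2-tolerant replicate 2 (0.131), without CoCl2-tolerant replicate 3 (0.0640), without low-glucose-tolerant replicate 1 (0.181) and without low-glucose-tolerant replicate 3 (0.150), over an edgeR or DESeq2 range of 2.69e-04 to 0.181. Of 18 other integrin ligands, 1 rose and 6 fell in the CoCl2-tolerant line, and 6 rose and 9 fell in the low-glucose-tolerant line. Compared with low-glucose-tolerant cells, 7 ligands were higher and 5 lower in CoCl2-tolerant cells. All genes had called shares of 36.1%, 69.2% and 63.9% in these 3 comparisons, in that order. VCAM1, the ligand of the ITGA4 receptors, rose to 29.4 ± 2.36 CPM in low-glucose-tolerant cells, against 8.45 ± 0.617 CPM in control cells (log2 fold change 1.80, edgeR adjusted p = 8.67e-09), and ICAM2, a ligand of ITGB2 receptors, to 7.40 ± 1.30 CPM, against 1.14 ± 0.260 CPM in control cells (log2 fold change 2.69, edgeR adjusted p = 2.97e-07). In the CoCl2-tolerant line VCAM1 was lower than control (log2 fold change -0.60, edgeR adjusted p = 0.00199), and ICAM2 was not called. THBS1, a matrix ligand of ITGB3 and ITGB1 receptors, averaged 4965 ± 585 CPM in CoCl2-tolerant, 1201 ± 224 in low-glucose-tolerant and 7712 ± 196 in control cells (edgeR adjusted p = 0.00234 and 1.10e-09 against control). NPNT, the ligand nephronectin, fell to 30.8 ± 1.21 CPM in CoCl2-tolerant cells, against 89.0 ± 0.456 CPM in control cells (log2 fold change -1.53, edgeR adjusted p = 1.35e-07). It was also lower than control in low-glucose-tolerant cells (log2 fold change -0.64, edgeR adjusted p = 7.36e-05). CDH1, the E-cadherin that ITGAE binds, averaged 1.41 ± 0.133 CPM in CoCl2-tolerant, 8.14 ± 1.48 in low-glucose-tolerant and 17.8 ± 0.465 in control cells (log2 fold change -3.66, edgeR adjusted p = 3.38e-09 for CoCl2-tolerant against control), while ITGAE was not called in the CoCl2-tolerant line.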

How the data were processed

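The deposited files hold raw read counts per gene, made with featureCounts on genome build GRCh38 per the submitters' processing notes, which also name DESeq2. The aligner, the annotation release and the strand option are not given in the sources. Per the labels' protocols, mRNA was isolated from TRIzol extracts and sequenced on an Illumina platform. Gene names, exon lengths, positions and exon overlaps came from GENCODE release 29. Counts were tested with edgeR 4.0.16 (R 4.3.3), with TMM scaling, filterByExpr by group (minimum count 10, 17902 genes kept) and a quasi-likelihood F test on all 9 libraries, 1 mean per group and no covariate. P-values were adjusted by Benjamini-Hochberg over all tested genes. The SE is the log2 fold change divided by the square root of F, and 95% intervals use the t distribution. Statements on depth cover counting error only. The fit was tested on simulated counts. CPM divide counts by the library total times its TMM factor. Alternatives were DESeq2 1.42.0, its size factors, library totals, other filters, a fit of 2 groups, a replicate block and fits without 1 library, which for partner genes were chosen after seeing the data. Of the members, 1 is included in the counts and medians but is otherwise not reported here and the others are named, and up to 4 genes per partner list and comparison are eligible by largest log2 fold change among those called at 1 CPM or more. The brefeldin A-tolerant line was not analysed here. Members and lists were chosen with earlier results of these data known. SMOC2, CEACAM5 and GP9 were not analysed here. Promoter windows are from RefSeq (GRCh38.p14), where 26 of 38 members matched, and windows that reach further into exons are not printed. Figures used Python 3.11.15 with matplotlib 3.10.9.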

Additional observations from a re-analysis of the deposited data

How the results depend on the processing

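The count of members called was within 1.5 times the reported count under every alternative run. Leaving out each library in turn gave 15 to 20 members called for CoCl2-tolerant against control, 20 to 24 for low-glucose-tolerant against control and 22 to 24 between the tolerant lines. Over all genes these ranges were 4463 to 7965, 11373 to 12903 and 10476 to 11836. A fit of only the compared groups called 22, 21 and 22 members in the same order, and 8552, 12027 and 10027 genes. For CoCl2-tolerant against control these counts lie above the ranges. Of 96 member comparisons, 78 had the same call in all alternatives, 56 of the 64 called ones kept their call, and none reversed while called. Library totals in place of TMM moved the median of all genes by -0.10 (log2) for low-glucose-tolerant against control. Same-numbered libraries of different groups had residual correlations of -0.260 to 0.124, so a shared number was not treated as a pair. With a replicate block the members called were 19, 21 and 22, and the genes called 6091, 12118 and 11136, in the 3 comparisons in the same order. Of 30 partner list counts, 9 moved by over 1.5 times in some alternative. The 2 basement membrane genes that rose in the CoCl2-tolerant line became 0, and the 6 other ligands that rose in the low-glucose-tolerant line became 2, at the lowest. The other ligands lower in CoCl2-tolerant than in low-glucose-tolerant cells, reported as 5, ran from 4 to 8, and the basement membrane genes lower there, reported as 5, ran from 3 to 5. The other 5 counts that moved were of 1 or 2 genes and moved by 1 gene at most. Depth limits the 6 members under the filter and ITGAX, ITGA2B, ITGA10 and ITGB7.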
